A study of Mus musculus with 10 samples.

Results

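Ribosome-protected mRNA fragments (RPFs, or footprints) of the mouse neocortex were compared between E15.5 and E14, the step in the middle of neurogenesis. All 10 libraries of the series entered the fit, so that SE and p-values rest on a spread estimated over all stages. The comparison was of 4 of them, 2 at each of both stages, over 13484 of the 22373 genes in the count table. Those genes had at least 32 footprints summed over the libraries of at least 1 of the 5 stages, and 12729 of them reached this minimum at E14 or E15.5 itself. At the edge of the minimum, 52 genes had a largest stage sum of exactly 32 footprints and were kept, and 48 genes had 31 and were left out.

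E14 and E15.5 are days of embryonic development after timed mating. All libraries came from wild-type mice of the outbred CD-1 strain with no transgene or drug, and each library was made from pooled neocortices of many embryos of both sexes, so the replicates are pools of animals. The tissue was lysed without cycloheximide, a drug that stalls ribosomes, and digested with RNase T1 and RNase A before the 80S monosomes were taken from a gradient. A pool holds progenitors, neurons and any vessel, meninges or midline tissue left on it, and fewer cells of a type cannot be told apart from fewer footprints per cell.

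In the neocortex, radial glia divide at the ventricular surface and give rise to intermediate progenitors and neurons. Neurons born early settle in the deep layers, and those born later migrate past them into the upper layers. A footprint count rises when an mRNA is more abundant or carries more ribosomes, and these possibilities cannot be separated in footprints alone. Ribosomal protein mRNAs and those of several translation factors begin with a C followed by pyrimidines, the 5' terminal oligopyrimidine (TOP) tract, through which mTOR signalling controls their translation. The choroid plexus and meninges lie at the edge of the cortex and secrete cerebrospinal fluid and matrix.

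The E14 libraries held 26598141 and 36129988 counts and the E15.5 libraries 31313156 and 22441862. Over 4559 genes with at least 500 counts on average, the SD of the log2 ratio between libraries of a stage was 0.182 at E14 and 0.125 at E15.5, and their counts differed beyond sampling noise, with a chi-square of 37.8 and 18.8 per degree of freedom. Levels are given as CPM, the counts scaled to a common library size, with TMM factors and without division by gene length, so they compare a gene between libraries and not genes with each other. Replication-dependent histone genes took 35.0% and 32.7% of the counts at E14 and 18.7% and 17.2% at E15.5. The pan-neuronal gene Tubb3 and the progenitor gene Pax6 were present in all 4 libraries, as the label neocortex requires, while defining genes of the choroid plexus and meninges were also read at E14.

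A change was called where the limma-voom p, adjusted by Benjamini-Hochberg over 13484 genes, was under 0.05 and the fitted log2 fold change was at least 0.32 in size. By this rule 2222 genes, or 16.5% of those tested, were higher at E15.5, and 2646, or 19.6%, were lower. Counts of list members below stand beside these shares. At least 2-fold changes were called for 850 genes that rose and 1346 that fell, and at least 4-fold changes for 155 and 403. The median fitted log2 fold change of all genes tested was -0.0086, with quartiles of -0.46 and 0.38. Both libraries of one stage lay above both of the other in 76.9% of genes, so that such a separation says little by itself. E15.5 was the higher stage in 5140 of these genes and the lower in 5228. When libraries were scaled to total counts without TMM, the median of all genes moved to 0.28, and 72.7% of the 6059 calls were rises in place of 45.6%. The changes of lists below are therefore also given relative to all genes. Leaving out 1 library reduced the 4868 calls by over 1.5 times in 3 cases, to 3016 for the second E14 library and to 2739 and 2806 for the first and second E15.5 libraries.

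Most listed genes of radial glia fell at E15.5. Of 28 listed genes tested, 20 fell, 3 rose and 5 were not called, beside 19.6% and 16.5% of all genes called lower and higher. The median log2 fold change of the list was -1.0. Its summed level was 5600 and 5702 CPM at E14 and 4540 and 4861 CPM at E15.5. Nes, the intermediate filament of neural stem cells, had 106 and 92.5 CPM at E14 and 49.6 and 49.3 CPM at E15.5. Its fitted log2 fold change was -1.002 ± 0.10 (SE, limma-voom adjusted p = 0.00023), and its libraries did not overlap between stages.

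Sox2 and Pax6 are transcription factors of radial glia. Sox2, which maintains neural stem cells, read 60.9 and 57.7 CPM at E14 and 30.9 and 28.0 CPM at E15.5 (-1.01 ± 0.13). Pax6, which marks apical progenitors of the cortex, went from 176 and 167 CPM to 92.9 and 81.7 CPM (-0.97 ± 0.10). Both genes had every E15.5 library below every E14 library.

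Several genes of the radial glia list act in the Notch pathway, which keeps these cells from differentiating. Hes5, a target of Notch that represses neurogenic genes, had 31.3 and 28.7 CPM at E14 and 10.5 and 9.03 CPM at E15.5 (-1.61 ± 0.25, limma-voom adjusted p = 0.0016). The receptors Notch1 and Notch2 (-1.76 and -1.67) and the target Hes1 (-1.41) fell too, and these 3 genes were picked after their values were seen. Fgfr3, a receptor for fibroblast growth factors, showed the largest fall of the list under the naming rule, from 55.2 and 54.5 CPM to 11.0 and 10.3 CPM (-2.36 ± 0.18, limma-voom adjusted p = 9.6e-05).

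Some radial glia genes moved the other way. Tnc, an extracellular matrix protein of the later stem cell niche, rose from 2.43 and 3.26 CPM to 6.81 and 7.22 CPM (1.29 ± 0.23, limma-voom adjusted p = 0.0033). The other rises were those of the fatty acid binding protein gene Fabp7, from 1041 and 1071 CPM to 1534 and 1721 CPM (0.62 ± 0.17), and of the receptor phosphatase gene Ptprz1, from 18.9 and 21.7 CPM to 35.3 and 33.5 CPM (0.76 ± 0.11). The homeodomain gene Hopx, at 0.26 ± 0.16, and the glutamate transporter gene Slc1a3, at -0.14 ± 0.11, did not pass the test. Fabp7, Ptprz1, Hopx and Slc1a3 were named after their values were seen.

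Among 14 genes of intermediate progenitors and the neurogenic cascade, 12 fell and none rose, beside 19.6% of all genes called lower. The median log2 fold change of the list was -1.36. Neurog2, a bHLH factor that commits progenitors to neurons, had 121 and 103 CPM at E14 and 46.7 and 39.3 CPM at E15.5 (-1.38 ± 0.17, limma-voom adjusted p = 0.00062). Nhlh1, a bHLH gene of newly born neurons, fell most, from 31.7 and 29.2 CPM to 7.26 and 4.73 CPM (-2.35 ± 0.26). Eomes, which encodes Tbr2 and defines intermediate progenitors, read 77.5 and 65.5 CPM at E14 and 49.3 and 44.7 CPM at E15.5, a smaller difference of -0.60 ± 0.17 (limma-voom adjusted p = 0.025). This call was lost on total counts (adjusted p = 0.167) and without E14 replicate 1 (0.143) or either E15.5 library (0.0804 and 0.147). Insm1 and Hes6, named after their values were seen, did not pass the test, at 0.02 ± 0.27 and -0.50 ± 0.23.

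Oncofetal genes of early progenitors, which promote growth and maintain early stem cell properties, were lower in all 5 members tested of 8 listed. By comparison, 19.6% of all genes were called lower. Hmga2, a chromatin protein of young stem cells, had 12.9 and 11.6 CPM at E14 and 2.59 and 0.886 CPM at E15.5 (-2.89 ± 0.43, limma-voom adjusted p = 0.0015). The E12.5 mean of the gene was 34.7 CPM and the P0 mean 0.187 CPM. Igf2bp1, an RNA-binding protein named after its values were seen, fell from 14.1 and 13.7 CPM to 4.58 and 3.67 CPM (-1.74 ± 0.14). Lin28b, which blocks let-7 maturation, was below the minimum, with 1 count in each E14 library and 1 and 0 at E15.5, and Lin28a and Trim71 were not tested either.

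Cell cycle genes fell nearly as a block. Of 56 S phase genes, 47 fell and none rose (median -0.89), and of 59 genes of G2 and M phase, 57 fell and none rose (median -1.05), beside 19.6% of all genes called lower. Mki67, the classical proliferation marker, had 4.77 and 4.21 CPM at E14 and 1.75 and 1.65 CPM at E15.5 (-1.38 ± 0.15, limma-voom adjusted p = 0.00039). Ccne1, the cyclin that drives entry into S phase, went from 7.86 and 8.84 CPM to 2.89 and 2.87 CPM (-1.53 ± 0.14), and Lbr, an inner nuclear membrane receptor, from 11.6 and 12.9 CPM to 4.34 and 4.01 CPM (-1.55 ± 0.15). On total counts 37 S phase and 51 G2 and M genes were still called lower.

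The promoters of these genes share sequence features that the lists did not use. Promoters of 300 bases (250 before the annotated start and 50 after it, RefSeq, GRCm38.p6) were matched by symbol for 8180 of the 13484 genes. The cell cycle homology region (CHR) was searched as TTTGAA or TTCGAA on both strands, where TTCGAA reads alike on both. A match was found in 39 of 47 promoters of G2 and M genes (83%), in 5 of 39 of S phase genes (12.8%) and in 13.4% of all 8180 promoters. The E2F motif, searched as TTTGGCGC, TTTCCCGC, TTTGCCGC or TTTCGCGC on both strands, with matches to opposite strands free to overlap, was found in 15 of 39 S phase promoters (38.5%), 3 of 47 G2 and M promoters (6.4%) and 4.3% of all. The median log2 fold change of G2 and M genes was -1.04 with the CHR and -1.10 without it, and that of S phase genes -1.06 with the E2F motif and -0.76 without it.

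Windows of 30 bases show the CHR in 4 G2 and M genes that fell and the E2F motif in 3 S phase genes that fell, each in the direction of the gene with the motif in capitals.
Mki67: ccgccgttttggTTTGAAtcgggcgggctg
Plk1: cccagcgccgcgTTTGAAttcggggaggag
Cdc20: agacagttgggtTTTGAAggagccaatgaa
Cdk1: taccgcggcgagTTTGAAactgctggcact
Cdt1: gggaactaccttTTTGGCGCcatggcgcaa
Mcm3: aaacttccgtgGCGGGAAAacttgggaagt
Orc1: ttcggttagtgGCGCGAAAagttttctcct
They lie at chr7:135716460-135716489 (Mki67, minus strand), chr7:122159453-122159482 (Plk1, plus), chr4:118437344-118437373 (Cdc20, minus), chr10:69352910-69352939 (Cdk1, minus), chr8:122568035-122568064 (Cdt1, plus), chr1:20820275-20820304 (Mcm3, minus) and chr4:108579416-108579445 (Orc1, plus). The CHR begins at position -15 from the annotated start in Cdk1 and at -18 in Cdc20.

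The genes shown encode steps of replication and mitosis, and they were picked for display after their values were seen. Plk1, a mitotic kinase, had 49.9 and 46.6 CPM at E14 and 21.4 and 20.0 CPM at E15.5 (-1.22 ± 0.12). Cdk1, the kinase that drives mitosis, read 162 and 166 CPM and then 84.1 and 78.3 CPM (-1.01 ± 0.10). Cdt1, which licenses origins of replication, read 12.1 and 10.3 CPM and then 4.88 and 4.56 CPM (-1.23 ± 0.20). All of them had both E15.5 libraries below both E14 libraries, as did 5228 of all 13484 genes.

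Replication-dependent histones, translated in S phase, fell in 64 of 66 genes tested, beside 19.6% of all genes called lower. The other members had fitted values below 0 too, and the median of the list was -1.24. Hist1h2an had 5799 and 5306 CPM at E14 and 2107 and 1911 CPM at E15.5 (-1.47 ± 0.20, limma-voom adjusted p = 0.00085). Histone genes of a cluster are near-identical, so that reads may be split among them and the value of a single gene is uncertain.

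**Figure D1:**
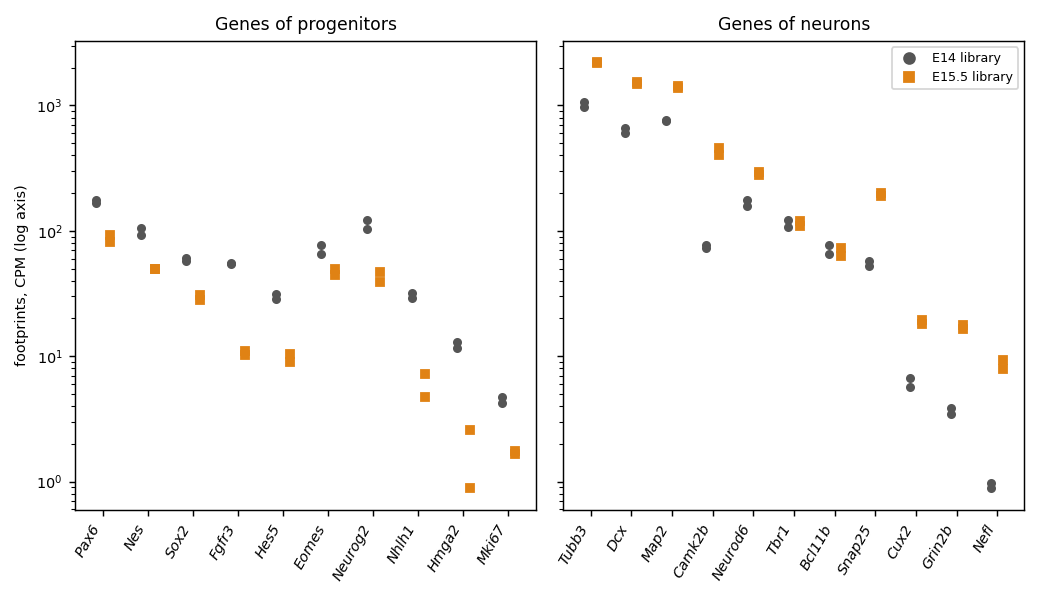
Footprints in CPM on a log axis for 10 genes of progenitors (left) and 11 of neurons (right), with each E14 library as a circle and each E15.5 library as a square. Both E15.5 libraries lie below both E14 libraries for every progenitor gene shown, and above them for the neuronal genes except Tbr1 and Bcl11b, whose libraries overlap.

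Neuronal genes rose at E15.5. Of 28 genes expressed across neurons, 26 rose and none fell, beside 16.5% of all genes called higher, and the median log2 fold change was 0.96. Tubb3, the neuronal beta tubulin, had 1073 and 980 CPM at E14 and 2195 and 2219 CPM at E15.5 (1.10 ± 0.10, limma-voom adjusted p = 0.00018). Dcx, a microtubule protein of migrating neurons, went from 604 and 664 CPM to 1475 and 1543 CPM (1.253 ± 0.16). Both genes were higher in every E15.5 library.

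Cytoskeletal genes of axons and dendrites spanned a wide range. Map2, of dendrites, had 761 and 758 CPM at E14 and 1380 and 1437 CPM at E15.5 (0.89 ± 0.11). Mapt, which encodes the axonal protein tau and was named after its values were seen, rose from 297 and 265 CPM to 1252 and 1357 CPM (2.22 ± 0.11, limma-voom adjusted p = 3.1e-05). Nefl, the light neurofilament chain of maturing axons, rose most, from 0.972 and 0.887 CPM to 7.86 and 9.29 CPM (3.18 ± 0.23). Neurod6, a bHLH factor of cortical projection neurons, rose from 158 and 176 CPM to 278 and 294 CPM (0.78 ± 0.15). The early neuronal genes Elavl4 and L1cam, also named after their values were seen, did not pass the test, at 0.07 ± 0.08 and 0.16 ± 0.13.

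Neurons of different layers carry different identity genes, and the difference between the upper-layer and deep-layer lists was not tested. Of 14 upper-layer genes 10 rose and 1 fell (median 1.56), and of 12 deep-layer genes 6 rose and none fell (median 0.50). By comparison, 16.5% of all genes rose and 19.6% fell. The deep-layer median was 0.29 without E14 replicate 2 and 0.79 on total counts. Cux2, a homeodomain factor of upper layers, rose from 6.76 and 5.67 CPM to 18.0 and 19.6 CPM (1.61 ± 0.16).

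The deep-layer list was divided between genes that rose and genes that did not pass the test. Bcl11b, which encodes Ctip2 and specifies subcortical projection neurons, read 77.01 and 65.3 CPM at E14 and 73.1 and 62.8 CPM at E15.5, with a fitted log2 fold change of -0.06 ± 0.20. Tbr1, of layer VI, read 122 and 108 CPM and then 119 and 110 CPM (-0.0032 ± 0.16). Libraries of both stages overlapped for each gene, and Sox5 (0.0024 ± 0.11) and Fezf2 (0.18 ± 0.15), named after their values were seen, did not pass the test either. On total counts the fitted values of Bcl11b and Tbr1 were 0.23 and 0.29, close to the median of all genes on that scale. The deep-layer gene with the largest rise was Ldb2, a LIM domain cofactor, from 14.7 and 18.4 CPM to 67.1 and 67.9 CPM (2.03 ± 0.16). The other rises, listed after their values were seen, were those of Tle4 (1.35), Lmo3 (1.01), Etv1 (0.93), Crym (0.76) and Zfpm2 (0.47).

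The earliest neurons of the cortex gave mixed values. Of 7 subplate genes 2 rose and 3 fell, beside 16.5% and 19.6% of all genes. Nr4a2, a nuclear receptor of the subplate, rose from 9.85 and 9.03 CPM to 44.9 and 42.7 CPM (2.22 ± 0.12), while the zinc finger gene St18 fell from 27.2 and 27.5 CPM to 8.10 and 7.56 CPM (-1.80 ± 0.16). Of 9 genes of Cajal-Retzius cells, which line the cortical surface, 5 fell and none rose, and this count was 3 without E15.5 replicate 2. Ebf3, a transcription factor of these cells, went from 14.9 and 14.8 CPM to 7.62 and 8.27 CPM (-0.91 ± 0.14). Reln, which they secrete to guide layering and which was named after its values were seen, had overlapping libraries at 12.8 and 14.5 CPM and 15.3 and 14.1 CPM.

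Genes of the synapse rose on both sides of the cleft. Of 35 presynaptic genes 25 rose and 4 fell (median 0.99), and of 30 postsynaptic genes 21 rose and 1 fell (median 0.96). By comparison, 16.5% of all genes rose and 19.6% fell. Snap25, a SNARE protein of vesicle fusion, had 57.1 and 52.3 CPM at E14 and 190 and 200 CPM at E15.5 (1.84 ± 0.12, limma-voom adjusted p = 6e-05). Syt1, the calcium sensor of release, rose from 11.5 and 13.9 CPM to 34.8 and 36.7 CPM (1.49 ± 0.17), and the active zone scaffold gene Rims1 from 1.02 and 1.52 CPM to 7.17 and 8.06 CPM (2.55 ± 0.26). The postsynaptic count was 13 without E14 replicate 1, E14 replicate 2 or E15.5 replicate 1.

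On the postsynaptic side, Camk2b, a kinase subunit that binds actin in spines, rose from 72.8 and 76.6 CPM to 403 and 461 CPM (2.53 ± 0.12, limma-voom adjusted p = 2.7e-05). Homer2, a scaffold of the postsynaptic density, was the member that fell, from 6.93 and 6.94 CPM to 4.28 and 4.09 CPM (-0.72 ± 0.13). The presynaptic genes that fell were Slc17a6 and Slc17a7, the vesicular glutamate transporters, the vesicle protein gene Sv2b and the priming factor gene Unc13b, of which all but Slc17a6 were named after their values were seen. The presynaptic falls were 11.4% of that list, below the 19.6% of all genes called lower. Slc17a6 went from 12.1 and 14.5 CPM to 7.11 and 8.70 CPM (-0.77 ± 0.14). The count of presynaptic genes that fell was 2 in place of 4 on total counts, with DESeq2, with no filter and without any one of the E12.5, E14, E15.5 and E17 libraries.

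Receptors and channels, which make neurons excitable, followed. Of 33 glutamate and GABA receptor genes 20 rose and 1 fell (median 1.08), beside 16.5% and 19.6% of all genes. Grin2b, the NMDA receptor subunit of the immature brain, had 3.89 and 3.49 CPM at E14 and 17.6 and 16.4 CPM at E15.5 (2.21 ± 0.24), and the AMPA receptor gene Gria2 had 10.6 and 11.8 CPM and then 19.0 and 20.3 CPM (0.81 ± 0.13). Grik2, a kainate receptor subunit, fell from 4.33 and 4.88 CPM to 2.74 and 2.96 CPM (-0.70 ± 0.14), a call lost without E15.5 replicate 1 (limma-voom adjusted p = 0.0622). The receptor count was 13 without E14 replicate 1.

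Of 35 voltage-gated channel genes 17 rose and 1 fell (median 0.85), beside 16.5% and 19.6% of all genes. Cacnb4, a calcium channel subunit, rose from 3.53 and 3.93 CPM to 10.5 and 10.2 CPM (1.47 ± 0.21), and the member that fell was Cacna1g, a T-type calcium channel named after its values were seen (-1.26 ± 0.25). The channel count was 9 without E14 replicate 1 or E15.5 replicate 1 and 11 without the other library of either stage.

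Axon guidance and adhesion genes showed no common direction. Of 34 genes 8 rose (23.5%) and 9 fell (26.5%), beside 16.5% and 19.6% of all genes. The median of the list was -0.06, near that of all genes. The rises numbered 5 with DESeq2, 3 without E14 replicate 1, 5 without E14 replicate 2 and 4 without either E15.5 library. On total counts the median was 0.23. Chl1, an adhesion protein of the L1 family, rose from 19.7 and 25.9 CPM to 50.8 and 52.0 CPM (1.183 ± 0.21). Slit2, a repellent ligand of Robo receptors, fell from 8.92 and 10.2 CPM to 2.77 and 2.87 CPM (-1.76 ± 0.15), and the receptors Robo1 and Robo2, named after their values were seen, rose (0.58 and 0.55).

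Progenitors and neurons use different splicing regulators. Ptbp1, the splicing repressor of progenitors, had 422 and 368 CPM at E14 and 190 and 178 CPM at E15.5 (-1.10 ± 0.17, limma-voom adjusted p = 0.0015). Its neuronal paralog Ptbp2, named after its values were seen, was at 0.06 ± 0.13 and did not pass the test. Rbfox1, a neuronal splicing factor, rose from 13.1 and 13.1 CPM to 41.8 and 39.8 CPM (1.64 ± 0.10). In all, 10 of 19 splicing regulators rose and 2 fell, beside 16.5% and 19.6% of all genes.

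The BAF chromatin remodeller exchanges subunits as progenitors leave the cell cycle. Actl6a, the progenitor subunit, fell from 92.1 and 88.8 CPM to 52.4 and 50.2 CPM (-0.82 ± 0.10), and Actl6b, its neuronal counterpart, rose from 40.2 and 38.2 CPM to 113 and 111 CPM (1.52 ± 0.15). Of the other members, the progenitor subunits Dpf2 and Ss18 fell (-0.58 and -0.57) and the neuronal subunits Dpf1 and Ss18l1 rose (1.22 and 1.19). These 4 were named after their values were seen. In all, 3 of 8 genes rose and 3 fell, beside 16.5% and 19.6% of all genes. On total counts 4 of the 8 rose and 1 fell.

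**Figure D2:**
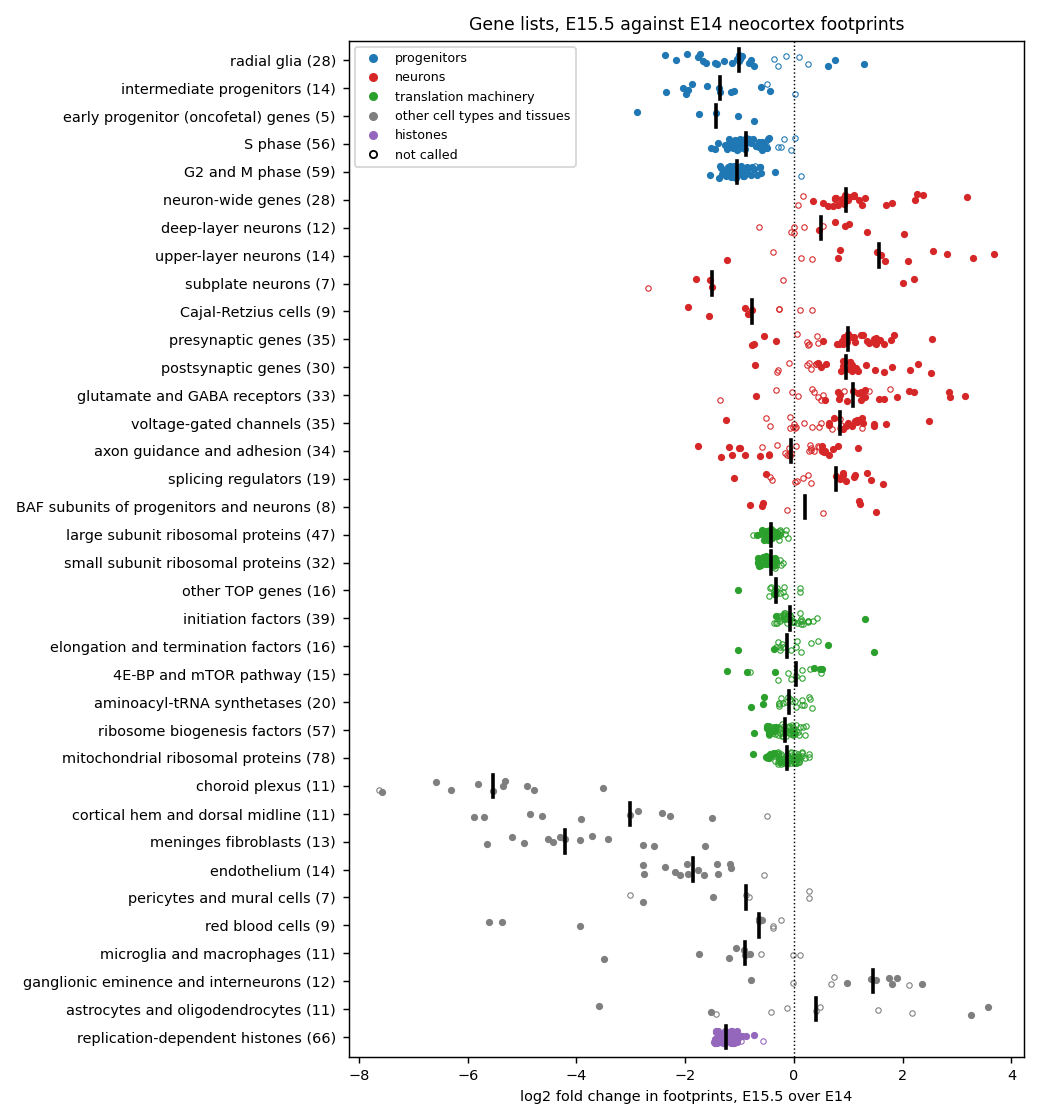
Fitted log2 fold change in footprints at E15.5 over E14 (x axis) for each member of 36 gene lists (rows, with the number tested), where filled points were called changed, open points were not, and black bars are medians. Progenitor lists lie left of the dotted median of all genes, neuron-wide, synapse and receptor lists right of it, ribosomal protein lists in a narrow band left of it, and choroid plexus and meninges lists far to the left, with medians of -5.54 and -4.21.

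The cytosolic ribosome moved as a family and by a small amount. All 47 genes of the large subunit and all 32 of the small subunit had both E15.5 libraries below both E14 libraries. This order held in 5228 of all 13484 genes. Of the 47 and 32 genes, 25 and 20 passed the test as lower and none as higher, beside 19.6% of all genes called lower. The median log2 fold change was -0.42 for either subunit. It ranged over genes from -0.75 to -0.11 in the large and from -0.67 to -0.20 in the small subunit. The study selected this gene family from the same libraries, so its count is not independent evidence of its direction.

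Summed over genes, the large subunit had 48170 and 49470 CPM at E14 and 35790 and 37390 CPM at E15.5, and the small subunit 26310 and 26460 CPM and then 19290 and 19380 CPM. How many of these genes were called depended on the scaling and on single libraries. On total counts the medians were -0.13 and -0.12, with 1 and 2 genes called lower, while their distance from the median of all genes stayed between -0.46 and -0.36 in the large and between -0.46 and -0.40 in the small subunit over all alternatives. The counts fell to 15 and 9 or to 10 and 10 when the first or second E14 library was left out, and to 6 and 6 or 9 and 6 for the first or second E15.5 library. They rose to 34 and 28 with the E14 and E15.5 libraries alone, with quality weights, or without either P0 library.

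Single ribosomal proteins had the following values. Rpl36, of the large subunit, had 434 and 423 CPM at E14 and 254 and 279 CPM at E15.5 (-0.69 ± 0.11, limma-voom adjusted p = 0.0018). Rps2, of the small subunit, had 708 and 632 CPM and then 433 and 409 CPM (-0.67 ± 0.17, limma-voom adjusted p = 0.015), a call lost on total counts and without E14 replicate 1 or either E15.5 library (adjusted p from 0.062 to 0.105). Rps6, the target of S6 kinase, read 305 and 328 CPM and then 240 and 250 CPM (-0.37 ± 0.18) and did not pass the test. Rpl41, the smallest ribosomal protein, had the lowest fitted value, -0.75 ± 0.36, with 7801 and 8030 CPM at E14 and 4274 and 5207 CPM at E15.5, and did not pass either. Both genes were called lower without P0 replicate 1 (limma-voom adjusted p = 0.00488 for Rps6 and 0.0235 for Rpl41) or P0 replicate 2 (0.00567 and 0.0247). The smallest difference was that of Rpl15, with 1517 and 1532 CPM and then 1424 and 1409 CPM (-0.11 ± 0.10). Ribosomal protein genes have many processed pseudogenes, so reads may be shared with those copies.

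The TOP tract can be seen at the annotated start of some of these genes. In the first 20 bases from the start (RefSeq, GRCm38.p6), the pyrimidine run from base 1 is in capitals for 5 ribosomal protein genes, and Eif4a2, an initiation factor gene with no such run, is set beside them.
Rps6: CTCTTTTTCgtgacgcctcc
Rps18: CTCTCTTCCacaggaggcct
Rpl15: CTTCCTTTCCTCTggcggca
Rpl35: CTCTTTCTCTCgaaccaggc
Fau: CTTCCTCTTTCTTgactcca
Eif4a2: aggagcagggcggccgagga
They lie at chr4:86857348-86857367 (Rps6, minus strand), chr17:33955646-33955665 (Rps18, minus), chr14:18270967-18270986 (Rpl15, minus), chr2:39005112-39005131 (Rpl35, minus), chr19:6057947-6057966 (Fau, plus) and chr16:23107468-23107487 (Eif4a2, plus). Fau encodes a small subunit protein fused to a ubiquitin-like protein. These genes other than Rps6 and Eif4a2 were picked for display after their values were seen. Rps18 fell by 0.66 and Fau by 0.54 on the log2 scale, whereas Rpl15 and Rpl35, at -0.11 and -0.31, did not pass the test. Rps2, which was called lower, has a run of only 1 pyrimidine at its annotated start. The display therefore does not set genes that fell apart from others.

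A start was counted as TOP where base 1 was C and the next 4 bases were pyrimidines. By this rule 12 of 50 ribosomal protein genes with a promoter entry had one (24.0%), beside 2.5% of 8180 genes. Rpl27a, which begins with T in a run of 16 pyrimidines, was not counted. Eef1a1 and Eef2, listed among the other TOP genes, were not counted either. Whether the annotated start is the first base of the mRNA was not tested, so a gene not counted may still carry the tract. The medians below therefore cannot show what the tract does. The median log2 fold change was -0.45 for the 12 with a TOP start and -0.42 for the other ribosomal protein genes. Outside the ribosomal proteins, 191 genes had a TOP start and a median of 0.014, and genes without one a median of -0.016.

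The medians of other TOP genes and of elongation factors lay between those of the ribosome and of all genes. Of 16 other TOP genes 2 fell and none rose (median -0.32), smaller shares than the 19.6% and 16.5% of all genes. This count was 1 on total counts (median -0.03) and without E14 replicate 1 or either E15.5 library. It was 5 with DESeq2 or its size factors, 4 with totals without histone genes, 9 with the E14 and E15.5 libraries alone or with quality weights, 9 without P0 replicate 1 and 7 without P0 replicate 2. Eef1a1, which carries tRNA to the ribosome, read 1881 and 1830 CPM at E14 and 1482 and 1481 CPM at E15.5 (-0.32 ± 0.12, limma-voom adjusted p = 0.072). Eef2, the translocase, read 255 and 229 CPM and then 204 and 202 CPM (-0.25 ± 0.10), and Pabpc1, which binds the poly(A) tail, 40.0 and 37.6 CPM and then 28.5 and 29.3 CPM (-0.42 ± 0.20). None of the 3 passed the test, and on total counts the fitted value of Eef2 turned to 0.04. Eef1a1 and Pabpc1 were called lower without P0 replicate 1 (limma-voom adjusted p = 0.00621 and 0.00184), Pabpc1 also without P0 replicate 2 (0.00213), and Eef1a1 also with DESeq2 (0.0258).

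The subunits of elongation factor 1 went apart. Eef1d, of the exchange complex, fell from 537 and 496 CPM to 256 and 251 CPM (-1.03 ± 0.10, limma-voom adjusted p = 0.00018). Eef1a2, the paralog of Eef1a1 that neurons and muscle use after birth, rose from 10.4 and 10.4 CPM to 28.7 and 28.9 CPM (1.47 ± 0.10), and its means were 41.4 CPM at E17 and 84.7 CPM at P0. Eef2k, the kinase that inhibits Eef2, was the other member that rose, from 11.1 and 10.8 CPM to 16.6 and 17.3 CPM (0.63 ± 0.10), and was named after its values were seen. Among 16 elongation and termination factors 2 rose and 2 fell (median -0.13), smaller shares than the 16.5% and 19.6% of all genes. On total counts 5 rose, 1 fell and the median was 0.16. The falls were 1 without E14 replicate 1 or either E15.5 library.

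Initiation factors were nearly level. Of 39 genes 1 rose and 1 fell, beside 16.5% and 19.6% of all genes, with a median of -0.08 for the list. On total counts 5 rose and the median was 0.22, below that of all genes on that scale. Without a P0 library 3 fell. Eif4a2, an RNA helicase of the cap-binding complex, was the exception, with 615 and 613 CPM at E14 and 1495 and 1558 CPM at E15.5 (1.31 ± 0.08, limma-voom adjusted p = 6e-05). Its paralog Eif4a1, named after its values were seen, was at -0.03 ± 0.10. Eif3i, of the factor that binds the small subunit, fell from 93.4 and 89.9 CPM to 73.3 and 72.1 CPM (-0.33 ± 0.11, limma-voom adjusted p = 0.041), a call lost in 13 of 22 alternatives, among them leaving out any one library of E12.5, E14, E15.5 or E17. Eif4e, the cap-binding protein, read 257 and 274 CPM and then 286 and 293 CPM (0.12 ± 0.29).

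The 4E-BP proteins, which hold Eif4e in check, and mTOR, which inactivates them, did not move as a group. Of 15 genes 3 were higher and 3 lower (median 0.03), 20% each way and near the 16.5% and 19.6% of all genes. The rises were 7 on total counts, 1 with DESeq2 or without E14 replicate 1 and 0 without any of the other E14 and E15.5 libraries, and the falls were 1 with edgeR and without E14 replicate 1 or either E15.5 library. Eif4ebp1 fell from 5.39 and 5.32 CPM to 3.16 and 2.701 CPM (-0.86 ± 0.17, limma-voom adjusted p = 0.005). Eif4ebp2, the form most studied in brain, read 89.0 and 84.7 CPM at E14 and 77.9 and 82.7 CPM at E15.5 (-0.11 ± 0.11) and had 0.18 on total counts, and Mtor read 8.88 and 8.62 CPM and then 10.2 and 9.16 CPM (0.15 ± 0.15). Neither passed the test, but Mtor was called higher on total counts (limma-voom adjusted p = 0.0473). Tsc1, an inhibitor of mTOR complex 1, rose from 17.1 and 16.1 CPM to 23.0 and 23.4 CPM (0.49 ± 0.11), a call lost without E14 replicate 2 or either E15.5 library.

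The remaining machinery differed from all genes by small amounts. None of 20 aminoacyl-tRNA synthetases, 57 ribosome biogenesis factors or 78 mitochondrial ribosomal proteins rose, and 3, 9 and 6 fell, shares of 15.0%, 15.8% and 7.7% beside 19.6% of all genes. Their medians were -0.09, -0.16 and -0.13, and on total counts these became 0.20, 0.14 and 0.17, with 6, 5 and 11 genes called higher and 0, 1 and 1 lower. The synthetase count was 1 without either E14 library and 0 without E15.5 replicate 2. The largest falls under the naming rule were those of Qars, which charges glutamine tRNA (from 52.9 and 54.3 CPM to 34.1 and 28.4 CPM, -0.78 ± 0.18), and of Dkc1, a pseudouridine synthase of rRNA (from 16.5 and 18.3 CPM to 10.2 and 10.7 CPM, -0.74 ± 0.15). Mrpl54, of the mitochondrial large subunit, went from 17.1 and 16.9 CPM to 10.1 and 10.1 CPM (-0.75 ± 0.15). Qars lost its call on total counts and without either E14 library or E15.5 replicate 2, and Dkc1 without E14 replicate 2 or E15.5 replicate 1. The biogenesis count was 2 or 4 without an E14 library and 1 without either E15.5 library, and 15 without either P0 library, and the mitochondrial count was 2 or 3 without a library of E14 or E15.5 and 10 without either P0 library.

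**Figure D3:**
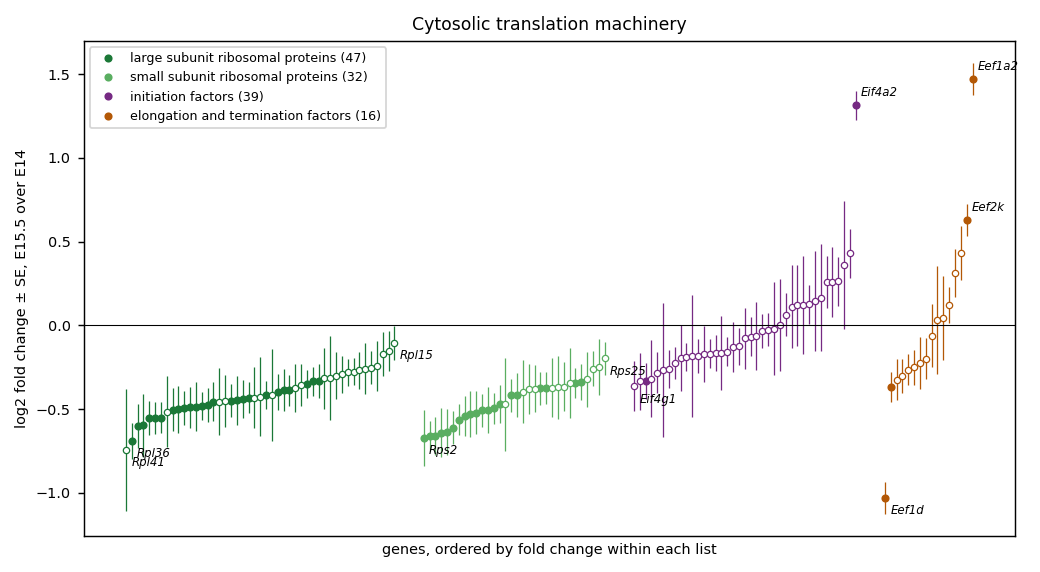
Fitted log2 fold change ± SE in footprints at E15.5 over E14 (y axis) for cytosolic ribosomal proteins, initiation factors and elongation and termination factors, ordered by value within each list, with filled points called changed. All 79 ribosomal proteins lie below 0, whereas initiation factors lie on both sides of it and Eif4a2, Eef1a2 and Eef1d stand apart from their lists.

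Over all genes, outside the marker lists of other tissues and histones, the 8 largest rises ran from 3.02 to 4.83 on the log2 scale. Nts, the neurotensin precursor, rose from 0.662 and 0.317 CPM to 9.61 and 9.41 CPM (4.42 ± 0.40), and Npy, neuropeptide Y, from 4.90 and 4.72 CPM to 44.9 and 50.02 CPM (3.30 ± 0.14, limma-voom adjusted p = 2.2e-05). Npy is made by cortical interneurons, among other cells. Stum, with the largest rise, went from 0.309 and 0.285 CPM to 8.01 and 9.92 CPM (4.83 ± 0.84), and Caln1, a calcium-binding calneuron, from 0.574 and 0.887 CPM to 11.0 and 12.2 CPM (3.93 ± 0.23). Fam19a2, Nefl, Scrg1 and Rgs6 completed the 8, with log2 fold changes of 3.73, 3.18, 3.13 and 3.02.

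The 8 largest falls ran from -5.72 to -3.82 on the log2 scale. Cldn11, a tight junction gene of the arachnoid and of myelin, fell from 12.9 and 12.8 CPM to 0.211 and 0.253 CPM (-5.72 ± 0.49). Cfap126 and Dynlrb2, of motile cilia, fell from 10.4 and 12.8 CPM to 0.151 and 0.38 CPM (-5.61 ± 0.55) and from 8.48 and 8.11 CPM to 0.422 and 0.127 CPM (-4.89 ± 0.72). The others were the sulfatase gene Sulf1 (-5.41), the chemokine gene Pf4 (-4.76), the retinoic acid binding gene Crabp2 (-3.98), the basement membrane collagen gene Col18a1 (-3.84) and the transducin gene Gngt2 (-3.82). The stage means of Cfap126, Dynlrb2, Sulf1 and Pf4 were highest at E14, and those of Cldn11, Crabp2, Col18a1 and Gngt2 at E12.5. A gene outside the marker lists is not thereby a gene of the cortex itself, and the tissue behind these falls was not tested.

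Apart from the cortex itself, markers of the choroid plexus showed the largest differences of any list. Their summed level was 1198 and 1200 CPM at E14 and 15.2 and 11.6 CPM at E15.5. All 11 genes tested of 16 listed had both E15.5 libraries below both E14 libraries, as did 5228 of all 13484 genes. Of the 11 genes 10 were called lower, beside 19.6% of all genes. Members near 0 at E15.5 met the footprint minimum at another stage, so these counts are partly set by that minimum. The median log2 fold change of the list was -5.54. It was -5.31 with the 2 genes read at 0 in both E15.5 libraries set to their bound of 3 counts over the group. Ttr, transthyretin, the carrier secreted into cerebrospinal fluid, had 1079 and 1082 CPM at E14 and 12.7 and 9.79 CPM at E15.5 (-6.59 ± 0.25, limma-voom adjusted p = 1.9e-05). Folr1, the folate receptor of the plexus, had 20.1 and 25.4 CPM and then 0.0301 and 0.422 CPM (-7.58 ± 1.20). Slc4a5 and Tmem72, named after their values were seen, were read at 0 in both E15.5 libraries. Set to that bound they were 13.6-fold and 16.4-fold lower than at E14, without allowance for error in the E14 level.

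The choroid plexus genes did not follow the stages in order. The sums were 379 and 297 CPM at E12.5, 6.98 and 8.14 CPM at E17 and 15.7 and 16.0 CPM at P0, so that the E14 libraries held the highest level of the series. Genes of the cortical hem and dorsal midline, from which the plexus grows, were lower in 10 of 11 tested (median -3.01), beside 19.6% of all genes. Their sums were 34.7 and 38.1 CPM at E14 and 9.10 and 8.86 CPM at E15.5. Most of the hem and midline genes had few counts, and a filter of 100 counts on average left 1 gene called and a median of -1.03. As in the plexus list, members near 0 at E15.5 entered the test through another stage. Wnt5a, a signalling ligand of the hem, fell from 5.65 and 7.29 CPM to 2.32 and 2.20 CPM (-1.51 ± 0.21).

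Fibroblasts of the meninges, which cover the brain, gave lower values in all 13 genes tested of 14 listed (median -4.21). Each was called, beside 19.6% of all genes called lower. Genes such as Col1a1 and Col3a1 met the footprint minimum at E14 and not at E15.5, so this count is partly set by that minimum. The sums were 77.9 and 84.7 CPM at E14 and 4.43 and 3.63 CPM at E15.5. Col1a1, a fibrillar collagen, had 9.80 and 10.3 CPM at E14 and 0.422 and 0.422 CPM at E15.5 (-4.52 ± 0.38), and Col3a1 had 16.1 and 17.1 CPM and then 0.482 and 0.38 CPM (-5.19 ± 0.41). At E12.5 the sums were 112 and 115 CPM, and at E17 and P0 they lay between 4.65 and 9.46 CPM.

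Vessels and blood were lower to a lesser degree, and 19.6% of all genes were called lower. Of 14 endothelial genes 13 fell (median -1.86), with sums of 95.6 and 106 CPM at E14 and 33.5 and 28.5 CPM at E15.5. Slc2a1, the glucose transporter of the blood-brain barrier, fell from 38.5 and 39.9 CPM to 10.6 and 9.41 CPM (-1.97 ± 0.17). Of 7 mural cell genes 2 fell, and their sum was 148 and 142 CPM and then 162 and 158 CPM. Of 9 red blood cell genes tested 6 fell, led by Hbb-y, an embryonic globin, from 398 and 315 CPM to 8.25 and 6.25 CPM (-5.61 ± 0.19, limma-voom adjusted p = 1.7e-05). The adult globins Hba-a1 and Hba-a2, which are near-identical copies and were named after their values were seen, both fell by 0.64.

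Immune and glial lists differed less, and 16.5% of all genes were called higher and 19.6% lower. Of 11 genes of microglia and macrophages 8 fell, with sums of 42.7 and 42.9 CPM at E14 and 30.4 and 23.5 CPM at E15.5, and the count was 4 on total counts, 5 with DESeq2, 5 without E14 replicate 1 and 4 without any of the other E14 and E15.5 libraries. Fcer1g, an Fc receptor chain, fell from 9.58 and 7.57 CPM to 4.16 and 3.21 CPM (-1.19 ± 0.21). Of 11 genes of astrocytes and oligodendrocytes 2 rose and 2 fell, 18.2% each way and near the shares of all genes. Aldh1l1, an astrocyte enzyme, rose from 1.06 and 0.982 CPM to 11.7 and 12.9 CPM (3.57 ± 0.26), and Gja1, connexin 43, which radial glia and meninges also express, fell from 22.7 and 26.4 CPM to 2.08 and 1.94 CPM (-3.59 ± 0.16).

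Genes of interneurons and the ganglionic eminence, where cortical interneurons are born, rose. Of 12 genes tested 7 rose and 1 fell (median 1.46), beside 16.5% and 19.6% of all genes. The median was 0.93 without E14 replicate 2, and no gene fell on total counts, with edgeR or DESeq2, or without any one library of E14 or E15.5. Their sum was 73.8 and 60.9 CPM at E14 and 158 and 152 CPM at E15.5. Gad1, which makes GABA, rose from 4.24 and 3.33 CPM to 19.6 and 18.6 CPM (2.36 ± 0.15, limma-voom adjusted p = 6e-05). Lhx6, of interneurons from the medial eminence, rose from 19.9 and 18.8 CPM to 70.1 and 65.6 CPM (1.81 ± 0.12) and was named after its values were seen.

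The markers of choroid plexus, hem, meninges and endothelium were lower over the same step as the progenitor genes. Their part in the changes of genes shared with radial glia, such as Gja1 and Fgfr3, was not tested.

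**Figure D4:**
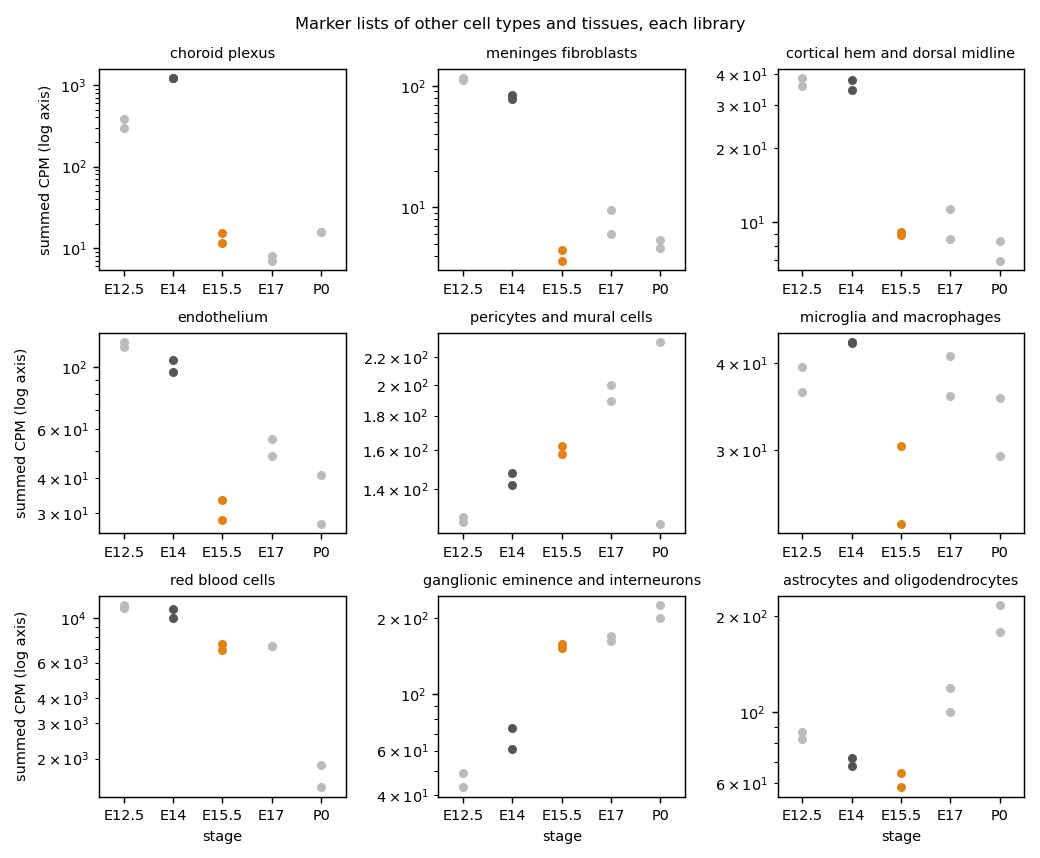
Summed CPM on a log axis of marker lists of other cell types and tissues in each of the 10 libraries by stage, with E14 in dark grey and E15.5 in orange. Choroid plexus, meninges, hem and endothelium sums are high at E12.5 and E14 and lower from E15.5 on, red blood cell sums step down at E15.5 and again at P0, and the sums of interneuron genes are higher from E15.5 on.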

How the data were processed

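Ribo-seq footprints of 10 neocortex libraries (2 per stage) were read from a table of counts per gene that the authors deposited, whole numbers that differ in total between libraries. The study's methods describe adapter trimming, after which duplicate reads carrying the same molecular identifier were removed, tRNA, rRNA and snoRNA reads were aligned away and the rest was aligned with STAR, keeping reads with several matches. The release is 2.7.0 per the labels' processing notes and another in the methods. The methods describe isoform estimates summed per gene, whereas the table holds whole numbers. Whether it was length-corrected is not given in the sources used here, and values of near-identical copies are uncertain.

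Of 22373 Ensembl identifiers 22274 matched a symbol, and 0 value columns were left unused. Genes with 32 or more footprints in a stage (13484) were scaled by TMM (edgeR 4.0.16) and fitted by limma-voom (limma 3.58.1, R 4.3.3), since the study's methods name limma and the minimum of 32 footprints. The minimum was applied here to genes, and the TMM scaling was chosen here. All 10 libraries entered the fit, each stage had its own coefficient, and tests were two-sided and Benjamini-Hochberg adjusted. p-values rest on the spread between the 2 pools of a stage, estimated over all 5 stages together. A gene at 0 in a stage was bounded by 3 counts over the group, which covers counting error at that stage only. In the 4 libraries 1 count was worth between 0.0301 and 0.0442 CPM.

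The members and lists were chosen with earlier results of these data known, so lists were described by counts and medians beside those of all genes, without a set test. Genes named are 34 chosen for their roles, the largest rise and fall in each list, and the 8 largest rises and falls over all genes, with at least 100 counts on average and libraries that do not overlap. Any other is marked as named after its values were seen, or was shown with a sequence or list. One gene that the rule names is not reported here. On simulated counts of this comparison over 13484 genes, calls recovered 13.4% of simulated 1.5-fold changes, 68.7% of 2-fold and 98.5% of 4-fold ones. The simulation left 13284 genes unchanged and changed only genes with at least 100 counts on average. In the data 4868 genes were called, so these shares are not the sensitivity of the comparison itself. Alternatives covered scaling, filters, edgeR, DESeq2 (1.42.0), weights and leaving out each library.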

Additional observations from a re-analysis of the deposited data

How the results depend on the processing

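The count of genes called (4868) lay between 3320 and 6502 under 12 alternatives that kept all libraries of both stages, among them 6059 on total counts, 4658 with edgeR, 3973 with DESeq2, 6338 with E14 and E15.5 libraries alone and 6502 with sample quality weights. It lay between 2739 and 6329 when 1 library was left out, and was 6321 without both P0 libraries, an alternative chosen after seeing the data. The correlation of replicate differences was 0.229 between E14 and E15.5 and lay between -0.641 and 0.429 over all pairs of stages, negative in 5 of 10. No label gives the numbers a shared source, and whether samples of the same number share one is not known. A replicate block gave 4562 calls, 4493 of them also called without it, and 2 presynaptic genes that fell in place of 4.

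With a filter of 100 counts, the medians relative to all genes were -1.04 for radial glia, -0.924 for S phase, -0.451 for the small ribosomal subunit, -6.51 for choroid plexus and -4.77 for meninges, where fewer members were tested. The choroid plexus value was -6.25 with edgeR and -6.37 with DESeq2. That filter also turned mural cells to 0.236 (0.24 unadjusted for all genes) and astrocytes and oligodendrocytes to -0.449 (-0.445). On total counts, medians turned to 0.234 for axon guidance, 0.218 for initiation factors, 0.164 for elongation factors, 0.203 for tRNA synthetases, 0.139 for biogenesis and 0.167 for mitochondrial ribosomal proteins. Single genes turned to 0.233 (Bcl11b), 0.0444 (Eef2), 0.182 (Eif4ebp2) and 0.291 (Tbr1). Tbr1 was also 0.00777 with no filter, 0.00248 with a filter on both stages, 0.000606 with their 4 libraries and 0.00226 with weights.

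With 1 library left out, fitted values ran from -0.189 to 0.0512 for Bcl11b and from -0.0958 to 0.0765 for Tbr1. Medians ran from -0.372 to 0.648 for astrocytes and oligodendrocytes and from -0.14 to 0.061 for axon guidance. Relative to all genes they ran from -0.361 to 0.651 and from -0.137 to 0.0725 for these lists, from -0.937 to -0.83 for S phase, -1.04 to -0.947 for radial glia, 0.997 to 1.08 for presynaptic genes, -0.455 to -0.401 for the small ribosomal subunit and -5.84 to -5.43 for choroid plexus. A filter of 100 counts tested fewer members and left 10 receptor and 7 channel genes called higher, and 6 choroid plexus, 1 hem, 4 meninges, 5 endothelial and 2 microglia genes called lower. The causes of the other shifts were not tested.

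Of 78 named genes called, 71 were called in every alternative that tested them, and 7 (Dkc1, Eif3i, Eomes, Grik2, Qars, Rps2 and Tsc1) lost the call in at least 1. Of those not called, Eef1a1 gained a call in 8 alternatives, Pabpc1, Rpl41 and Rps6 in 5 each and Mtor in 1. Genes under about 1 CPM rest on few counts. The simulation, in which most genes were unchanged, found few 1.5-fold changes, so a small difference that was not called may still exist.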
